A study of Neurospora crassa with 11 samples.

Results

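The genes described here are a set of factors that build the ribosome in the filamentous fungus Neurospora crassa, apart from the ribosomal proteins themselves. They were taken by the text of the authors' annotation: a gene was included where its description names rRNA, the nucleolus, ribosome biogenesis, ribosome assembly or RNA polymerase I, and does not name a ribosomal protein. This gave 56 of the 9600 annotated genes. The set is not complete, since assembly factors described in other words, such as the assembly protein loc-1 (NCU01301), stay outside it. By annotation the 56 genes comprise 4 subunits of RNA polymerase I, 3 core proteins of small nucleolar ribonucleoproteins (snoRNPs), 23 factors of the small ribosomal subunit, 16 factors of the large subunit and 10 others with broader or unspecific descriptions. No level or fold change entered the choice.

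As background, ribosomes are made in the nucleolus, where RNA polymerase I copies the rDNA into a long precursor. Box C/D and box H/ACA snoRNPs guide its methylation and pseudouridylation, and a large set of processing factors, helicases, GTPases and nucleases cuts it and folds it with ribosomal proteins into the small and large subunits. In Saccharomyces cerevisiae, where most of the roles given below were worked out, the genes for these factors are known to be transcribed together, strongly during growth and weakly under starvation.

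The study asked which genes are controlled by CLR-1, CLR-2 and XLR-1, transcription factors that N. crassa needs to degrade plant cell walls; XLR-1 is the one for xylan, the main hemicellulose. RNA-seq counts were available for 11 libraries. Mycelium was pregrown for 16 h with sucrose, washed and put into fresh Vogel's medium, a minimal salt medium, holding xylan, sucrose or no carbon source. Wild type (strain OR74A, FGSC2489) on xylan had 3 libraries. The xlr-1 deletion (deltaxlr-1::HygR, a hygromycin resistance cassette in place of the gene) on xylan had 4. The third strain carries xlr-1 with the A828V protein change at his-3 behind the ccg-1 promoter, in a background with its own xlr-1 deleted by the same cassette and labelled mat a; it had 3 libraries without carbon and 1 on sucrose. Its xlr-1 therefore runs from a promoter other than its own, and ccg-1 is itself known as a glucose-repressed gene. For wild type without carbon, only the authors' group means were used. Nothing in the labels states that replicates were grown as separate cultures; the p-values below therefore reflect only how much these samples vary, and that variation may be technical. In RNA from whole mycelium, fewer cells of a type and less RNA per cell cannot be told apart.

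Libraries held 10317390 to 18927605 reads counted to genes. Levels below are CPM, each library's counts scaled to a common total with edgeR's TMM factors, unless FPKM, which also divides by gene length, is named. xlr-1 itself stood at 136, 158 and 112 CPM in wild type on xylan and at 11.8, 9.79, 3.28 and 5.62 CPM in the 4 deletion libraries. It was low in every deletion library, with no overlap with wild type. In the A828V strain it stood at 109, 129 and 115 CPM without carbon and at 199 CPM on sucrose, of which the first lay below the 3 wild-type values and the last above them. All 56 ribosome assembly genes passed the filter on low counts, and they drew between 0.0614% and 0.303% of the gene counts of a library.

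The 56 genes mostly moved up and down together from library to library, although 3 of them had a correlation below 0 with the median of the others. Their CPM summed to 3197, 1293 and 1881 in wild type on xylan, to 2616 in A828V on sucrose, to 730, 808 and 729 in A828V without carbon, and to 822, 575, 1309 and 3063 in the deletion on xylan. The 3 libraries without carbon were low and close to each other, the sucrose library was high, and the deletion libraries ran from below the lowest library without carbon to just under the highest wild-type library. As mean ± SD this was 2124 ± 975 CPM in wild type (n = 3), 756 ± 45.3 CPM in A828V without carbon (n = 3) and 1442 ± 1123 CPM in the deletion (n = 4).

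**Figure D1:**
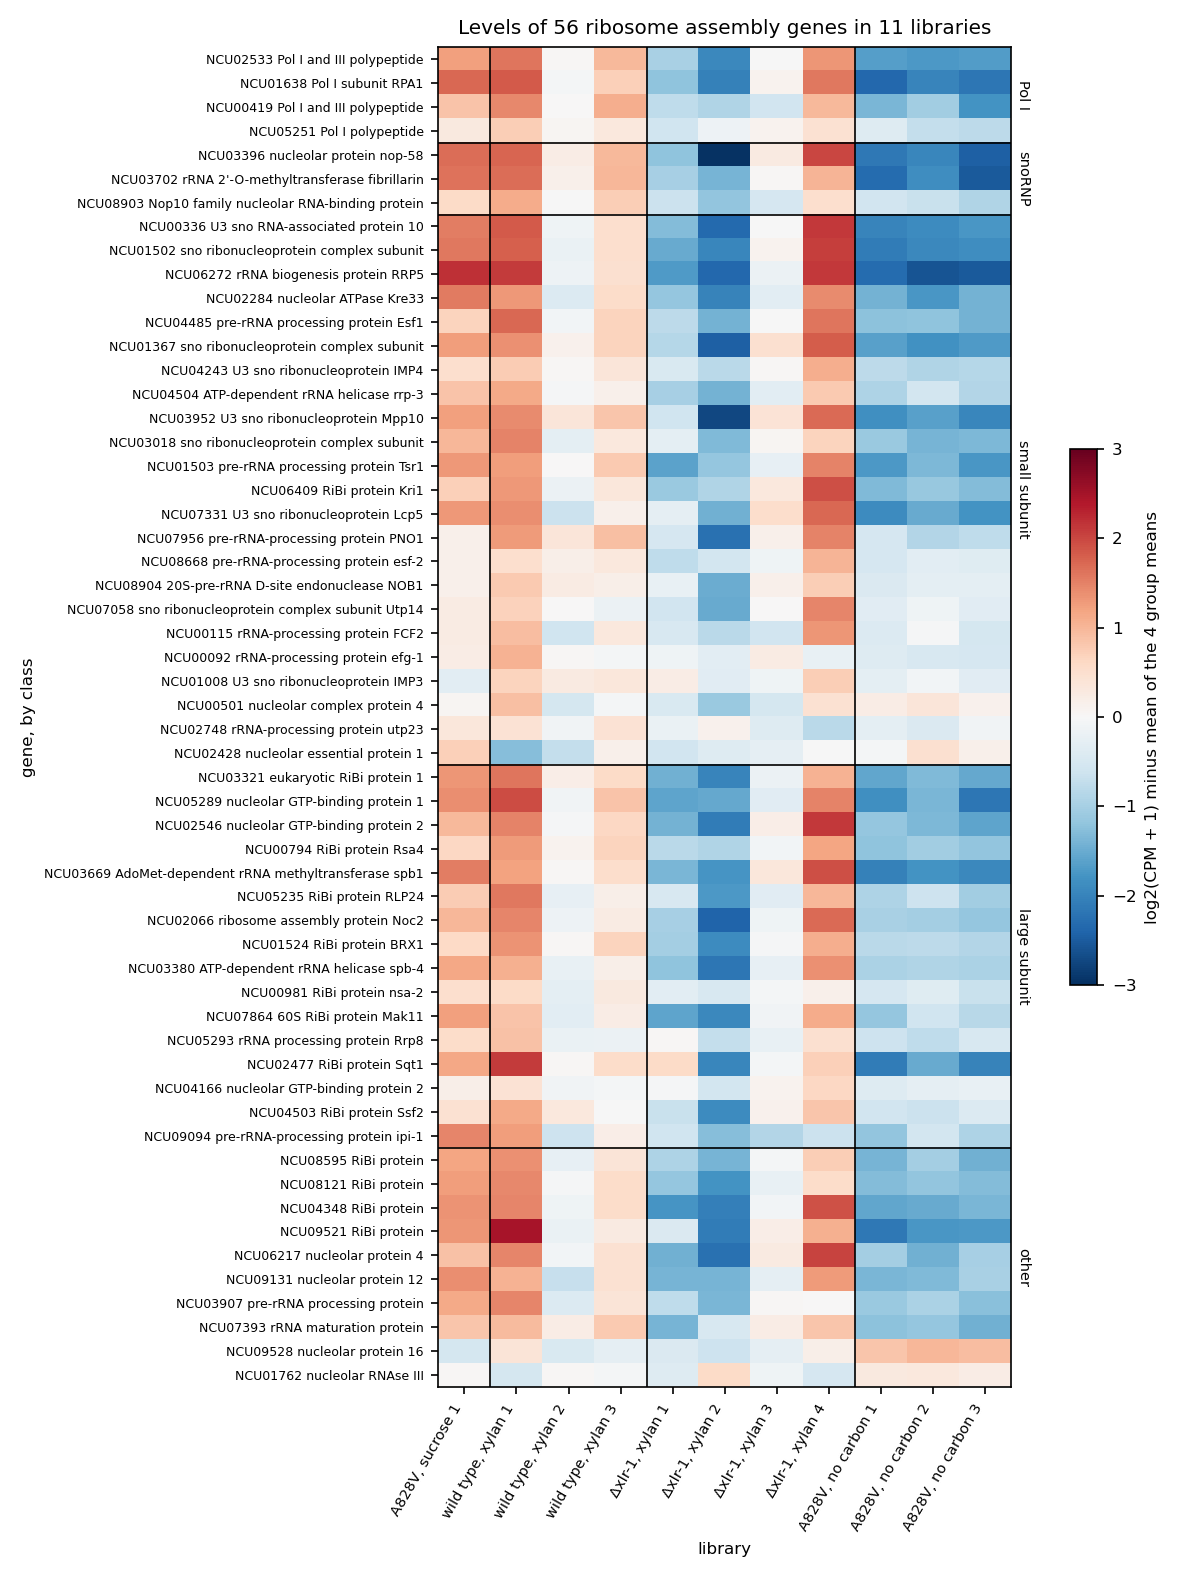
Level of each of the 56 genes (vertical axis, grouped by class) in each of the 11 libraries (horizontal axis); colour is log2(CPM + 1) minus the mean of the 4 group means. Nearly all genes are red on sucrose and in wild-type library 1 and deletion library 4, and blue without carbon and in deletion library 2. At the bottom, nucleolar protein 16 runs the other way without carbon and on sucrose only. Nucleolar RNase III runs the other way without carbon, in wild-type library 1 and in deletion libraries 2 and 4.

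Per length, and by the mean of the 4 group means, the most abundant members were fibrillarin (NCU03702), the enzyme of box C/D snoRNPs that methylates rRNA riboses, and Nop10 (NCU08903), a core protein of box H/ACA snoRNPs. Fibrillarin had a mean of 92.2 FPKM in wild type on xylan, 115 FPKM in A828V on sucrose, 43.1 FPKM in the deletion and 11.1 FPKM in A828V without carbon. Nop10 had 71.4, 56.8, 35.8 and 32.9 FPKM in the same order. Below them in this order came nsa-2 (NCU00981), IMP3 (NCU01008), nucleolar essential protein 1 (NCU02428) and nop-58 (NCU03396). The order differed between groups: in A828V without carbon the highest members were nucleolar protein 16 (NCU09528) at 51.3 FPKM and nucleolar essential protein 1 at 41.3 FPKM, and in the deletion IMP3, at 40.4 FPKM, stood above Nop10. At the low end was ipi-1 (NCU09094), with 2.42 FPKM in wild type on xylan. The median member stood at 9.57 FPKM in wild type on xylan, 11.9 FPKM in A828V on sucrose, 6.51 FPKM in the deletion and 3.49 FPKM in A828V without carbon. The median over all genes tested moved much less, from 12.1 FPKM on sucrose to 16.7 FPKM without carbon.

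Wild type on xylan was first set against wild type without carbon, which asks how the carbon source alone bears on these genes. In the authors' deposited table, 30 of the 56 genes were called higher on xylan and 0 lower, where a call is an authors' adjusted p under 0.05. Of the 8896 genes of that table with a usable test, 5.91% were called higher and 1.93% lower. The authors' deposited table gives 53 of the 56 a positive log2 fold change, with a median of 2.05, against a median of 0.03 over all genes. By role, the authors' deposited table calls 2 of 4 RNA polymerase I subunits, 3 of 3 snoRNP core proteins, 9 of 23 small subunit factors, 10 of 16 large subunit factors and 6 of 10 others higher on xylan.

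Among members called, the steepest rises in the authors' deposited table were in RRP5, fibrillarin, nop-58 and UTP10. RRP5 (NCU06272), which in yeast is needed for both subunits, is listed there with group means of 0.492 FPKM without carbon and 5.64 FPKM on xylan, a log2 fold change of 3.52 with an authors' adjusted p of 8.35e-06. Fibrillarin went from 8.90 to 97.9 FPKM and nop-58, another box C/D core protein, from 4.58 to 50.1 FPKM in the authors' deposited table, both about 11-fold. UTP10 (NCU00336), a protein of the yeast small subunit processome, went from 0.476 to 4.95 FPKM, and RPA1 (NCU01638), the largest subunit of RNA polymerase I, from 1.27 to 10.9 FPKM in the authors' deposited table. Nucleolar GTP-binding protein 1 (NCU05289), a GTPase of the large subunit, rose from 2.95 to 27.8 FPKM there. The 3 members with negative values in the authors' deposited table were nucleolar essential protein 1 at -0.18, nucleolar RNase III (NCU01762) at -0.17 and nucleolar protein 16 at -0.03, none of them called.

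The authors' calls were fewer among overlapping gene models. Of the 56 genes, 10 overlap another locus in the authors' coordinates (17.9%, against 23% of all loci). The authors' deposited table calls 1 of these 10 higher on xylan and 29 of the other 46; over all its genes it calls 4.26% of overlapping and 8.92% of other genes, in either direction. NCU01502, annotated as a subunit of a small nucleolar ribonucleoprotein complex, and NCU00419, annotated as shared by RNA polymerases I and III, both overlap a neighbour. They are listed in the authors' deposited table with log2 fold changes of 3.40 and 2.75 and adjusted p-values of 0.468 and 0.961. The edgeR calls between the A828V libraries without carbon and wild type, described below, fell on 6 of the 10 overlapping and 18 of the other 46 members, and on 20.98% and 20.71% of all genes. These differences in share were not tested. The counts keep ambiguous reads in an entry of their own, which was left out, so counts of overlapping genes can lack reads of the shared stretch. They can also hold reads of the neighbour.

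Between the A828V strain and wild type, both without carbon, no member was called. The authors' deposited table calls 0 of the 56 higher and 0 lower in A828V, while it calls 2.94% of 8899 genes higher and 1.57% lower. Log2 fold changes in the authors' deposited table ran from -1.22 for NCU09521, annotated as a ribosome biogenesis protein, to 0.99 for nucleolar protein 16, with a median of 0.03 and 30 of 56 positive. Fibrillarin had means of 10.2 FPKM in wild type and 10.2 FPKM in A828V in the authors' deposited table. Both of the authors' comparisons share the wild type without carbon.

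**Figure D2:**
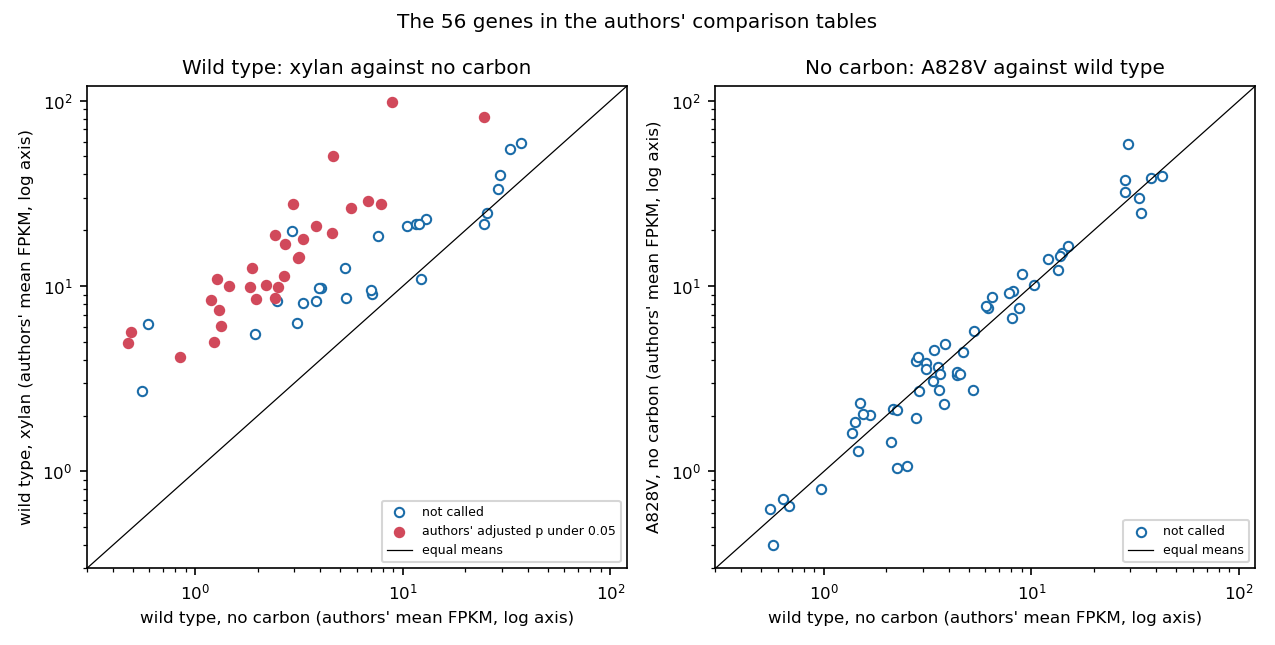
Authors' group mean FPKM of the 56 genes on log axes: wild type on xylan against wild type without carbon (left) and A828V against wild type, both without carbon (right); the line marks equal means and filled red points have an authors' adjusted p under 0.05. On the left 53 of 56 genes lie above the line and 30 are red, while on the right the genes scatter on both sides and 0 are red.

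The A828V strain without carbon was next compared with the same strain on sucrose, with edgeR over all 11 libraries and Benjamini-Hochberg adjustment over 8557 genes. Of the 56 genes, 20 fell without carbon and 1 rose, at an adjusted p under 0.05. Over all genes tested, 10.4% were called lower and 8.39% higher. In all, 52 of 56 fold changes were negative (46.2% of all genes), the median log2 fold change was -2.21 (0.11 over all genes), and 34 had an unadjusted p under 0.05 (34.3% of all genes). The sucrose value lay above all 3 values without carbon for 52 genes, as for 41.3% of all genes tested, and below them for 3, as for 47.3%. The sucrose group has 1 library, whose spread was assumed to be that of the other groups.

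Members that fell were spread over all roles. Calls were 3 of 4 RNA polymerase I subunits, 2 of 3 snoRNP core proteins, 6 of 23 small subunit factors, 4 of 16 large subunit factors and 5 of 10 others, with median log2 fold changes of -2.95, -3.89, -1.80, -2.17 and -2.55.

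RPA1 (supercontig 12.2, 2864458 to 2870350) stood at 5.72, 7.65 and 6.63 CPM without carbon and at 112 CPM on sucrose. The groups were far apart, and its log2 fold change was -4.07 (SE 1.05, edgeR adjusted p = 0.0258). NCU02533, a subunit annotated as shared by RNA polymerases I and III, had 4.77, 4.55 and 4.69 CPM against 41.5 CPM.

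Fibrillarin (supercontig 12.5, 2139694 to 2142246) stood at 16.2, 22.3 and 13.8 CPM without carbon and at 258 CPM on sucrose. This 14.8-fold difference had a log2 fold change of -3.89 (SE 0.76, edgeR adjusted p = 0.00849). nop-58 (supercontig 12.2, 857266 to 859846) had 12.0, 14.0 and 9.64 CPM against 183 CPM, with a log2 fold change of -3.94 (SE 1.22, edgeR adjusted p = 0.0477). Both of these box C/D proteins fell, while Nop10 of the box H/ACA particle had 35.7, 33.4 and 28.5 CPM against 80.4 CPM and was not called (edgeR adjusted p = 0.128).

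Among small subunit factors, RRP5 (supercontig 12.3, 2146807 to 2152833) had the largest fold change of the members called, with 2.56, 1.91 and 2.07 CPM without carbon and 79.9 CPM on sucrose. Its log2 fold change was -5.19 (SE 1.41, edgeR adjusted p = 0.0303). NCU01502 fell by 4.41 on the log2 scale, from 23.5 CPM on sucrose to a mean of 1.10 CPM. Lcp5 (NCU07331), part of the yeast U3 particle, fell by 3.81, and Kre33 (NCU02284), the rRNA acetyltransferase of yeast, fell by 3.52. Their edgeR adjusted p-values were 0.0477, 0.0337 and 0.0480. NCU01502 and Lcp5 each overlap another locus.

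Of the large subunit factors, spb1 (NCU03669), a methyltransferase of the large rRNA in yeast, fell from 76.9 CPM to a mean of 6.07 CPM, and Sqt1 (NCU02477), in yeast a chaperone of a large subunit protein, from 41.5 to 4.23 CPM. Their log2 fold changes were -3.66 and -3.29 (edgeR adjusted p = 0.0378 and 0.0303). The others included NCU09521, which fell by 3.67 (edgeR adjusted p = 0.0449).

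One member rose. Nucleolar protein 16 (supercontig 12.5, 4475025 to 4476719), whose yeast counterpart takes part in large subunit assembly, stood at 75.3, 84.8 and 79.6 CPM without carbon and at 28.8 CPM on sucrose. Its log2 fold change was 1.47 (SE 0.44, edgeR adjusted p = 0.0430). All 3 values without carbon were above every value of the other groups. The locus overlaps NCU09527, however, so its counts may lack shared reads or hold reads of that locus.

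Most of these calls were lost with 1 library fewer. Leaving out any 1 of the 3 libraries without carbon left 1 or 2 members lower and 0 higher, with medians from -2.32 to -2.24. Over all genes, 4.79%, 6.34% and 4.9% were called lower in these fits without library 1, 2 and 3, so the members' share was then below that of all genes. Their fold changes still lay on one side in the same fits, with 52, 53 and 52 of the 56 negative. The median log2 fold change of all genes was 0.108, 0.104 and 0.114 there, well above that of the members. Fibrillarin was the member called in each of these 3 fits. With limma on log2(FPKM + 1), 5 members were lower, against 4.89% of all genes. The median of the 56 members was -1.39 in that fit, and the median of all genes was 0.44.

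**Figure D3:**
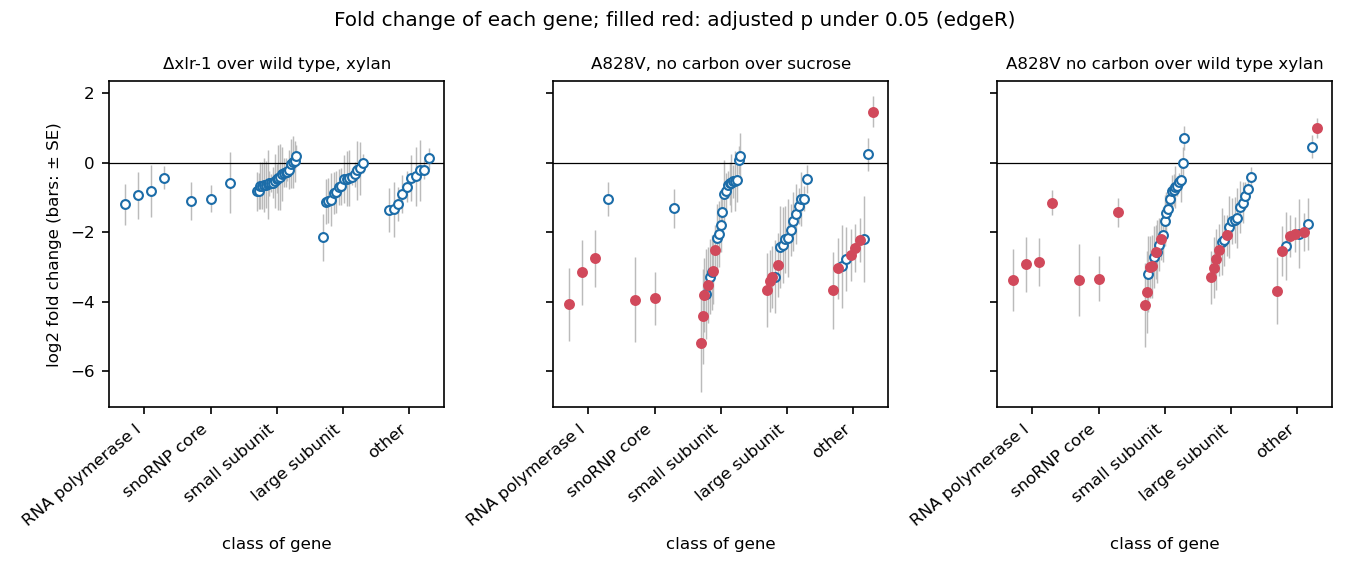
Log2 fold change of each of the 56 genes (points; bars are ± SE from edgeR) by class in the 3 comparisons; filled red points have an adjusted p under 0.05. The 2 panels with A828V without carbon hold 20 and 23 red points below 0 and 1 above, and the panel of the deletion holds 0.

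A828V without carbon was also set against wild type on xylan, where strain and medium both differ and cannot be told apart. This comparison uses the same 3 libraries without carbon as the last one. Of the 56 genes, 23 were called lower and 1 higher, against 11.5% and 9.29% of all genes tested. The median log2 fold change was -2.05 (-0.01 over all genes), 52 of 56 were negative (50.2% of all genes), and the groups did not overlap in 49 that were lower (25.9% of all genes) and 2 that were higher (28.4%). All 4 RNA polymerase I subunits and all 3 snoRNP core proteins were called lower, with 6 of 23 small subunit factors, 5 of 16 large subunit factors and 5 of 10 others.

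Fibrillarin, with 267 CPM in wild-type library 1 on xylan, 92.9 CPM in library 2 and 167 CPM in library 3, was 10.1-fold higher there than in A828V without carbon, with a log2 fold change of -3.33 for the latter (SE 0.65, edgeR adjusted p = 0.00872). RPA1 had 121, 31.6 and 54.7 CPM on xylan and differed by -3.37 (SE 0.89, edgeR adjusted p = 0.0266). RRP5 had 73.9, 14.7 and 23.4 CPM and differed by -4.09 (SE 1.21, edgeR adjusted p = 0.0389). In each of these genes wild-type library 1 was the highest and library 2 the lowest, and both lay above all libraries without carbon.

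Further members called lower were Sqt1 (log2 fold change -3.29), nucleolar GTP-binding protein 1 (-3.02), Mpp10 (NCU03952, a U3 particle protein, -2.97), NCU02533 (-2.92), nop-58 (-3.37), NCU09521 (-3.68) and NCU01502 (-3.72). Nucleolar protein 16 was again the one member called higher, with 55.2, 30.3 and 34.4 CPM on xylan, a 2-fold difference with a log2 fold change of 1.001 (SE 0.29, edgeR adjusted p = 0.0352). Many of these calls were lost in most fits with 1 library fewer. Without wild-type library 1 there were 2 lower (Sqt1 and fibrillarin), against 6.72% of all genes. Without wild-type library 2 there were 24 (11.6%), and without wild-type library 3 there were 8 (9.77%). Without A828V library 1, 2 or 3 there were 1, 3 and 1, against 3.23%, 5.2% and 3.21% of all genes. The median log2 fold change stayed between -2.42 and -1.44.

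Markers of conidia and aerial hyphae also differed between these libraries. con-6, con-8, con-10 and con-13, genes known for their expression in conidiation, summed to 2868 to 3434 CPM in A828V without carbon, against 89.8 to 226 CPM in wild type on xylan, 99.3 CPM on sucrose and 225 to 302 CPM in the deletion. eas, the hydrophobin of the conidial coat, stood at 16714 to 19834 CPM without carbon and at 120 to 2221 CPM in all other libraries. Of the 5 markers, con-6, con-8 and con-10 were called higher against sucrose and con-6, con-8 and eas against wild type. con-13 was at 0 in 1 library, deletion library 4, and at most 3.57 CPM elsewhere. con-10 did not separate the media: it stood at 38.1 to 55.9 CPM without carbon and at 59.1 and 54.6 CPM in deletion libraries 1 and 2. In wild type, the authors' deposited table has 4 of the 5 markers called lower on xylan than without carbon and all 5 negative, with a median log2 fold change of -3.40. The part of these cells in the lower levels of the ribosome assembly genes was not tested.

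The xlr-1 deletion was compared with wild type on xylan, which asks whether XLR-1 bears on these genes when xylan is the carbon source. None was called by edgeR, which gave 0 lower and 0 higher at an adjusted p under 0.05, with 3 at an unadjusted p under 0.05. Over all genes tested, edgeR called 0.573% lower and 0.0234% higher, and 14.3% had an unadjusted p under 0.05, more than the share of the members. DESeq2 called 1 member lower, where it called 2.25% of all genes lower. The fold changes nevertheless lay on one side, with 52 of 56 below 0 (45.9% of all genes) and a median log2 fold change of -0.57 (0.05 over all genes). The groups did not overlap in 0 of the 56, against 5.01% of all genes tested with the deletion lower and 4.7% with it higher.

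ipi-1 (supercontig 12.1, 836279 to 837803), whose yeast counterpart belongs to a complex that matures the large subunit, had the lowest p. It stood at 6.40, 0.997 and 2.55 CPM in wild type and at 1.05, 0.272, 0.672 and 0.969 CPM in the deletion, from 3 to 64 reads per library. The groups overlapped through wild-type library 2, and the log2 fold change was -2.14 (SE 0.68, edgeR adjusted p = 0.206). It is the member that DESeq2 called.

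Next came Nop10, with 118, 53.7 and 90.1 CPM in wild type against 34.3, 23.0, 37.5 and 76.7 CPM in the deletion. Deletion library 4 lay among the wild-type values, and the log2 fold change was -1.03 (SE 0.39, edgeR adjusted p = 0.280). NCU03907, annotated as a pre-rRNA processing protein, had -1.19 (SE 0.50), utp23 (NCU02748), a processome protein in yeast, -0.57 (SE 0.26), and NCU08121, annotated as a ribosome biogenesis protein, -1.35 (SE 0.64). Their edgeR adjusted p-values were 0.312, 0.355 and 0.371. Fibrillarin stood at 41.0, 31.4, 85.9 and 170 CPM in the deletion, a log2 fold change of -1.10 (SE 0.55, edgeR adjusted p = 0.397). RPA1, at 13.7, 7.44, 35.6 and 101 CPM, had -0.80 (SE 0.75).

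The spread within both xylan groups was larger for these genes than for genes at large. The median SD of a member on the log2 scale was 0.75 in wild type and 1.31 in the deletion, against 0.40 and 0.51 over all genes tested. In A828V without carbon it was 0.16 both for the members and for all genes. Wild-type library 1 was the highest of its group for 53 of 56 members (40.8% of all genes), and wild-type library 2 the lowest for 50 (27.6%). Deletion library 4 was the highest of its group for 51 (28.7%) and deletion library 2 the lowest for 46 (28.6%). Of the conidia markers, 0 of 5 were called by edgeR in the deletion against wild type and all 5 had positive log2 fold changes, with con-6 at 1.64 (unadjusted p = 0.0186) and con-10 at 1.27 (unadjusted p = 0.0391). con-10 was highest in deletion libraries 1 and 2, where the members were lowest, and so was con-13, at a low level. The other markers did not follow this order. con-8 ran the other way, lowest in deletion library 1 (147 CPM) and highest in deletion library 4 (272 CPM), where the members were highest. eas was also lowest in deletion library 1, and con-6 was highest in deletion library 1 and lowest in deletion library 3. The part of these markers in the members' levels was not tested. Deletion library 2 also had the largest share of reads given to no gene, 29.6%, against 6.34% to 16.9% in the other libraries; its part in the low values was not tested.

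**Figure D4:**
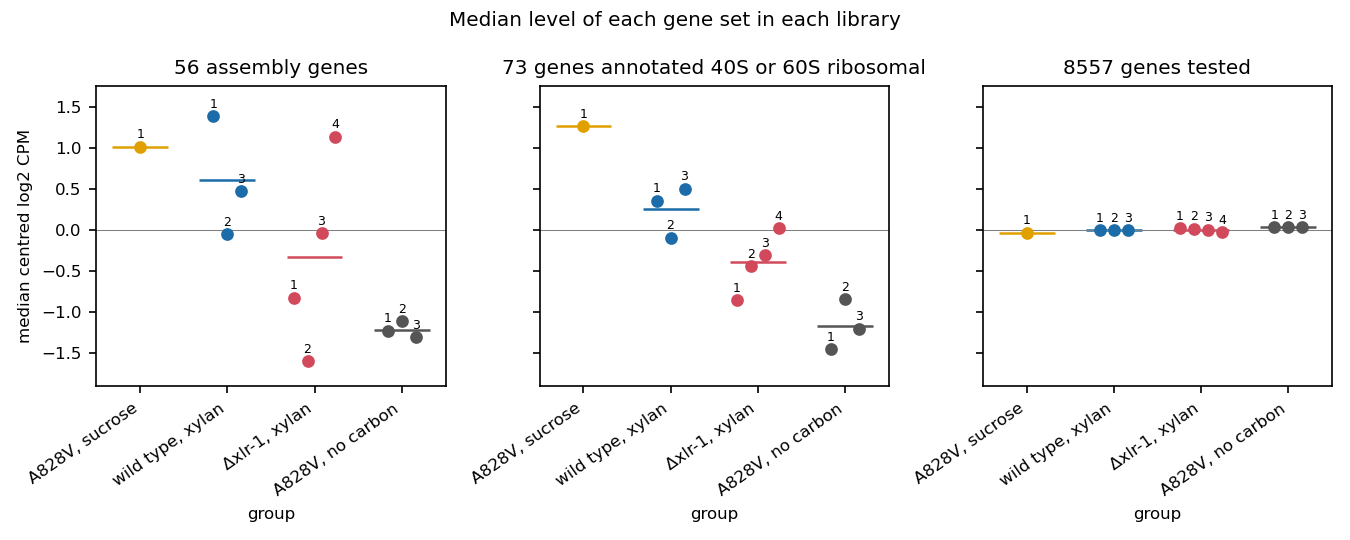
Median centred log2 CPM of the 56 ribosome assembly genes, of 73 genes annotated as 40S or 60S ribosomal and of all 8557 genes tested in each library (points, numbered by replicate; lines are group means). The 56 genes range from -1.59 in deletion library 2 to 1.39 in wild-type library 1, while the median of all genes stays between -0.03 and 0.04.

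Wild-type and deletion libraries of the same number were also compared as pairs, although the labels state no pairing. In their deviations from group means, only the libraries numbered 1 stood well apart (r = 0.64). Numbers 2 and 3 had r = 0.26 and 0.25. Deletion library 2 with wild-type library 3 had 0.25, and deletion library 3 with wild-type library 2 had 0.16. The pairs of unlike number that hold a library numbered 1 had r from -0.56 to -0.29. Within pair 1, 54 of 56 members were lower in the deletion (median log2 difference -2.40), within pair 2, 53 (-1.54), and within pair 3, 50 (-0.47). In all 3 pairs at once 47 were lower (83.9%, against 19.3% of all genes tested). Deletion library 4, in which the members were high, has no partner. With the replicate number as a block the median log2 fold change was -1.51 and 44 members had an unadjusted p under 0.05 (16.9% of all genes), but 0 were called. The block takes deletion library 4 out of the contrast. Leaving out that library with no block gave a like result, a median of -1.48 with 42 members at an unadjusted p under 0.05 (16.9% of all genes) and 0 called. Leaving out deletion library 1 or 2 gave medians of -0.35 and -0.27, and leaving out wild-type library 1 gave -0.10. With both libraries numbered 1 left out, a choice made after seeing the data, it was 0.03 with 26 of 56 negative. The size of the group median thus rested on single libraries.

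**Figure D5:**
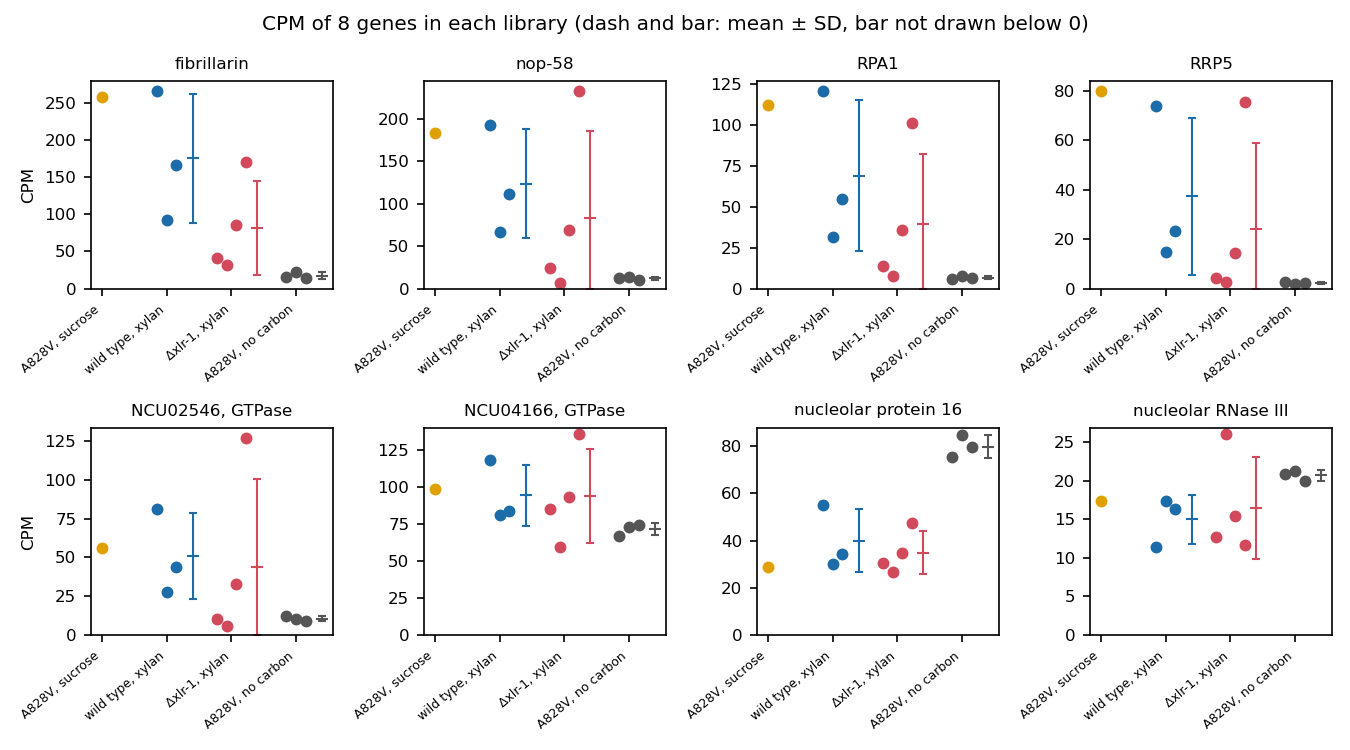
CPM of 8 members in each library (points, coloured by group) with the group mean and SD beside groups of more than 1 library; SD bars are not drawn below 0. Fibrillarin, nop-58, RPA1, RRP5 and the GTPase NCU02546 are low in all 3 libraries without carbon and spread widely on xylan, the GTPase NCU04166 varies little, and nucleolar protein 16 is highest without carbon.

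How closely each member followed the rest was described by its correlation with the median of the other members over the 11 libraries, which share strains, media and depth. The median r was 0.95 and 40 of 56 members were over 0.9, against a median of 0.80 for the 73 genes annotated as 40S or 60S ribosomal and -0.10 for the other 8501 genes. UTP10 was closest to the set (r = 0.99). Nucleolar RNase III, whose yeast counterpart cleaves the end of the precursor, ran against it (r = -0.76). Nucleolar protein 16 (r = -0.26) and nucleolar essential protein 1 (r = -0.14), an rRNA methyltransferase in yeast, had weak negative values. Within the xylan groups nucleolar protein 16 went with most members, highest in wild-type library 1 and deletion library 4 and lowest in library 2 of each. utp23 (r = 0.23) and nucleolar complex protein 4 (NCU00501, r = 0.49), a small subunit factor in yeast, followed loosely.

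RNase III (supercontig 12.2, 2519739 to 2521550) stood at 11.4, 17.3 and 16.3 CPM in wild type, 20.9, 21.3 and 19.9 CPM in A828V without carbon, 17.4 CPM on sucrose and 12.7, 26.02, 15.4 and 11.6 CPM in the deletion. It was lowest in wild-type library 1 and deletion library 4, where most members were highest, and highest in deletion library 2, where most were lowest. Nucleolar essential protein 1 (supercontig 12.7, 2521626 to 2523869) had 18.6, 27.9 and 51.5 CPM in wild type, 44.0, 65.0 and 51.6 CPM without carbon, 77.0 CPM on sucrose and 31.0, 35.2, 37.9 and 46.04 CPM in the deletion. It passed no test, with log2 fold changes of -0.53 against sucrose and 0.71 against wild type for A828V without carbon (edgeR adjusted p = 0.462 and 0.165).

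A pair of members carry the same annotation, nucleolar GTP-binding protein 2, a GTPase of late large subunit assembly in yeast, and behaved differently. NCU02546 had 81.3, 27.7 and 43.8 CPM in wild type, 12.2, 10.6 and 8.89 CPM in A828V without carbon, 56.2 CPM on sucrose and 9.997, 5.89, 32.8 and 127 CPM in the deletion. It followed the set. NCU04166 had 118, 81.2 and 84.1 CPM, then 66.7, 72.9 and 74.5 CPM, 98.6 CPM, and 85.2, 59.7, 93.6 and 136 CPM in the same order, and had a log2 fold change of -0.47 against sucrose and -0.40 against wild type (edgeR adjusted p = 0.434 and 0.334). Its locus overlaps NCU04167. The difference between the pair was not tested.

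Genes outside the set whose levels were most like its median over the 11 libraries were NCU00650, annotated as Wdr1p (r = 0.99), NCU03117, an IMP dehydrogenase of guanine nucleotide synthesis (r = 0.99), NCU09380, a pumilio-family protein (r = 0.99), rpc-3 (NCU03560, r = 0.99) and NCU06943, annotated as SIK1 (r = 0.99). Of the other genes tested, 205 had r over 0.9.

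Some members are neighbours. Tsr1 (NCU01503), a late small subunit factor in yeast, and NCU01502 lie 166 bp apart on supercontig 12.2 and had log2 fold changes of -3.11 and -4.41 in A828V without carbon against sucrose. The helicase rrp-3 (NCU04504) and Ssf2 (NCU04503) lie 171 bp apart on supercontig 12.4, with -1.80 and -1.03. NOB1 (NCU08904), the nuclease that trims small subunit rRNA, and Nop10 lie 1521 bp apart on supercontig 12.5, with -0.50 and -1.30. Of these genes Tsr1 and NCU01502 were called.

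Other genes of protein synthesis were described by lists of annotation text. The 73 genes annotated as 40S or 60S ribosomal, nearly all cytosolic ribosomal proteins, had 64 called lower and 1 higher in A828V without carbon against sucrose (median log2 fold change -2.40), 60 lower and 1 higher against wild type on xylan (-1.41), and 0 called in the deletion (-0.61). That text also takes in 3 other genes, 2 mitochondrial proteins counted again below and the assembly protein loc-1; the 70 without them had 63 and 58 called lower (-2.40 and -1.42). Of 29 mitochondrial ribosomal proteins, 24 were lower against sucrose (-1.91) and 21 against wild type (-1.12). Aminoacyl-tRNA synthetases, 34 genes, had 14 lower (-1.30) and 9 lower (-0.76). The 41 genes annotated as initiation or elongation factors had 10 lower (-0.99), then 7 lower and 1 higher (-0.76); 4 of them are transcription elongation factors, and the 37 without these had the same counts of calls (-1.02 and -0.81). The ribosomal proteins had the larger share called, and the assembly genes the lower median against wild type; neither difference was tested.

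Smaller shares were called elsewhere. RNA helicases outside the set, 29 genes, had 5 lower in each comparison (-0.91 against sucrose and -1.02 against wild type), and tRNA modification genes, 13 in number, had 3 and 0 lower (-1.17 and -0.79). The 21 genes whose annotation names RNA polymerase II or III had 0 lower in either and 1 higher against wild type, with medians of -0.13 and -0.20. Of these, 8 are Elongator, Mediator and other associated proteins, and the 13 polymerase subunits had 0 called in either (-0.49 and -0.25). Nuclear transport receptors (8 genes) and the proteasome (29 genes) had 1 lower in each comparison. In the deletion 0 genes of all these lists were called, with medians from -0.61 for the genes annotated as 40S or 60S ribosomal to 0.19 for the proteasome.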

How the data were processed

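RNA-seq of 11 N. crassa libraries was used. Per the submitters' processing notes, the authors worked with TopHat2 2.04, HTSeq 0.6, Cufflinks 2.02 and Cuffdiff 2.02. Not given in the sources used here were their settings and the genome build. The deposited values are raw read counts per gene, FPKM per gene, and tables of the authors' group mean FPKM, log2 fold changes and adjusted p-values. Entries that name no gene held 6.34% to 29.6% of counts and were left out. In the comparison tables, 12 single-library columns were not used. Positions are 1-based from the FPKM tables; 9750 of 9757 loci have the length that RefSeq gives them.

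The counts were fitted in edgeR 4.0.16 (R 4.3.3) as deposited: quasi-likelihood test, two-sided, TMM, filterByExpr with a minimum count of 10, 1 coefficient per group over all 11 libraries (7 residual degrees of freedom), and Benjamini-Hochberg adjustment over 8557 genes with calls under 0.05. The code was tested on simulated data. Alternatives used other scalings, no filter, DESeq2 1.42.0, limma 3.58.1 on log2(FPKM + 1) or log2(FPKM + 0.1), fewer libraries and a replicate block. Totals of 10317390 to 18927605 gene counts per library set the counting error, which matters for genes with few reads.

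Same-numbered wild-type and deletion libraries correlated in their deviations from group means (r = 0.64, 0.26 and 0.25). Pairs of unlike number that hold a library numbered 1 had r from -0.56 to -0.29. For numbers 2 and 3 the same-number values were little above the unlike pairs among them (0.25 and 0.16), so a pairing by number is uncertain. Replicates were no repeats of 1 library, as counts differed beyond sampling noise.

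Members and lists were chosen with earlier results of these data known. Members named were, per comparison, the 10 largest falls and rises among those called with a mean of at least 10 CPM, or the 5 lowest p where fewer than 5 were called, those called against the rest, and the most abundant of each class. UTP10, NCU02546, nucleolar RNase III, utp23 and nucleolar complex protein 4, further members described by level, and the neighbours were chosen after their values were seen. Lists were cut from annotation text; narrower versions of 3 lists, by text alone, were added after the data were seen. Promoter motifs and protein composition were not analysed here.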

Additional observations from a re-analysis of the deposited data

Results flagged for a closer look

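RRP5 was flagged in 1 library of the deletion on xylan. Deletion library 4 had 75.7 CPM, while the other 3 had 4.43, 2.45 and 14.6 CPM, and the gap to the nearest was larger, as a share of the group's range, than Dixon's 95% critical value for 4 samples. It was 1 of 23 items tested in this way, and chance gives about 1 in 20. The check of RRP5 was made on CPM and not on the log2 scale. Deletion library 4 was the highest of its group for 51 of the 56 members, so a high value there was not particular to RRP5.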

How the results depend on the processing

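The direction of the member median was negative under every alternative run for both comparisons with A828V without carbon. Against sucrose, members called lower went from 20 (10.4% of all genes) to 5, 3 and 2 with limma on log2(FPKM + 1), log2(FPKM + 0.1) and log2(FPKM + 1) unfiltered. These limma fits called 4.89%, 4.59% and 4.13% of all genes lower. With the compared groups alone 52 members were lower, and so were 30.6% of all genes. The median of the members was -1.39 with limma at a pseudocount of 1, filtered or not. Leaving out 1 library gave 1 to 2 lower and 0 higher, against 4.79% to 6.34% of all genes lower and 3.56% to 4.54% higher. Against wild type, 23 members lower (11.5% of all genes) became 36 with DESeq2 (13.9%), 6 with limma unfiltered (4.64%) and 44 with the compared groups alone (18.4%). With a replicate block they became 39 in the 10 numbered libraries (14.9%) and 37 in the compared groups alone (10.9%). A828V and wild-type libraries of the same number did not deviate together, however (r = -0.10, -0.23 and -0.17). In each of its 3 fits limma called 2 members higher, where 17.9%, 15.7% and 16.6% of all genes were higher. It gave a median of -1.18 at a pseudocount of 1, filtered or not, and -1.465 at 0.1. Leaving out 1 library gave 1 to 24 lower and 0 to 1 higher, against 3.21% to 11.6% of all genes lower and 3.12% to 6.2% higher. For the deletion, DESeq2 called 1 member lower, against 2.25% of all genes. The median of the members was -1.51 and -1.47 with the replicate block and from -1.48 to -0.10 leaving out 1 library. With both libraries numbered 1 left out it was 0.026. The block changed no other call.

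Sign changes among named members: NCU04166 in the deletion was at 0.004 with limma, 0.18, 0.03 and 0.15 without wild-type library 1, deletion library 1 and deletion library 2 (from -0.30 to 0.18 leaving out 1 library), and 0.22 without both numbered 1; against sucrose it was at 0.085, 0.088 and 0.085 with limma. Nucleolar protein 16 was at 0.11 and 0.17 (from -0.43 to 0.11 leaving out 1 library), and nucleolar essential protein 1 at -0.082 and -0.001 (from -0.082 to 0.656), without wild-type library 1 and without both numbered 1; RPA1 was at 0.15 without both. Their causes were not tested. Among named members 53 values against sucrose and 56 against wild type lost their call, mostly where a library was left out.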
